A study of Mus musculus with 15 samples.

Results

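The genes described here are 10 members of the Notch pathway measured in mouse liver tumors: the receptors Notch1, Notch2, Notch3 and Notch4, the ligands Jag1, Jag2 and Dll1, and the target genes Hes1, Hey1 and Heyl. They were chosen by name, as the non-control probes whose gene name in the array files is one of these symbols, which gave 12 probes for 10 genes out of 55681 probes and 24336 gene symbols on the array. Notch1 and Notch2 have 2 probes each, and the other 8 genes have 1.

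Notch receptors are cleaved in steps after a Jagged or Delta ligand on a neighbouring cell binds them, and the freed intracellular domain joins the DNA-binding protein RBPJ and Mastermind proteins in the nucleus to switch on genes of the Hes and Hey families. In the liver the pathway is known for its role in bile duct formation, where Jag1 on cells around the portal vein signals to Notch2 on biliary precursors. Notch4 and Dll4 are known from endothelial cells, and Notch3 and Heyl from the mural cells around vessels.

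RNA of 15 tumors was hybridised to 1-colour Agilent mouse arrays, 5 tumors in each of 3 groups. The control group was hepatocellular carcinoma (HCC) of p53f/f mice, which carry floxed, intact Trp53 alleles, and the other groups were HCC and intrahepatic cholangiocarcinoma (ICC) of p53LKO mice, in which Trp53 is deleted in the liver. All mice received intraperitoneal CCl4 at 0.5 µl per g body weight for 16 weeks, a treatment that the controls share, so no group shows an uninjured liver. Injections began at 6 weeks of age, 2 per week by the methods and 1 every 3 days by the labels. The Cre driver behind the liver deletion is not named in the sources used here. The study describes its HCC arrays as from male mice and its strain background as C57/BL6J. It gives no sex for the ICC. Sacrifice took place at ages of 24 or 36 weeks, p53f/f mice were followed to 90 weeks, and the labels do not give the age at which each hybridised tumor was taken, so age and genotype cannot be told apart. The 5 p53f/f HCC came from 4 mice, since mouse 3717 gave 2 tumors. Mice 3731, 3733, 3976 and 5283 each gave 1 HCC and 1 ICC.

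Each value below is a level, the log2 processed signal of a probe minus the 75th percentile of its array, and a positive level lies above that percentile. Levels are compared between tumors for 1 probe and never between probes. Called genes are those with a fold change above 2 whose adjusted p was also under 0.05. Arrays lay in 2 rows of 2 slides. In row 1, 55.1% to 70.1% of probes were well above background on an array, and in row 2 37.0% to 47.0% were. All p53f/f HCC and the p53LKO HCC of mice 3731, 3733 and 3975 lay in row 1, and all ICC and the p53LKO HCC of mice 3976 and 5283 in row 2. Slide 1 held 4 p53f/f HCC, 2 p53LKO HCC and 1 ICC, and slide 2 held 1, 3 and 4, so differences within a slide can rest on 1 array of a group. Trp53 itself was lower by 2.09 on the log2 scale in p53LKO HCC than in p53f/f HCC (SE 0.24, adjusted p = 0.000166) without overlap, and lower by 2.07 in ICC (SE 0.32, adjusted p = 0.000990). Its signal cleared background on all 5 p53f/f HCC arrays, on 4 of 5 for p53LKO HCC and on 2 of 5 for ICC. It thus entered the ICC test only through p53f/f HCC, and the size of that difference is not exact. Whether its probe lies in the deleted exons was not established. The tumors are bulk tissue, in which fewer cells of a type and less RNA per cell cannot be told apart.

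Of each pair of probes for Notch1 and Notch2, the upstream one, which starts nearer the 5′ end of the transcript, is printed, because each gene's other probe gave different values. By the array files, the Notch1 probe starts at base 5898 of its transcript (mm9, chr2:26319440-26319499, minus strand) and the Notch2 probe at base 7448 (mm9, chr3:97951233-97951292, plus strand). They read 5′ to 3′, with no base marked:
Notch1: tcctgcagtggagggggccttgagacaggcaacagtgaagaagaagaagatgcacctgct
Notch2: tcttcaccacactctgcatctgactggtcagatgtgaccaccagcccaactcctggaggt
The Notch1 sequence above was well above background on all 15 arrays. The other Notch1 probe (mm9, chr2:26314630-26314689), which starts at base 8221, was not well above background on any array and is not used. The probes thus disagree, although the array files assign them to the same transcript. Whether the sequence above reads Notch1 RNA alone was not tested. Every Notch1 level below is the signal of that probe. For Notch2 the brighter probe (mm9, chr3:97953914-97953973), starting at base 10129, represents the gene, and the upstream probe above is given beside it. The files give positions in the transcript, and exons or coding bounds were not used here.

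The other members' single probes, in mm9 coordinates, lie on chromosome 17 for Notch3 (32257848 to 32257907), Notch4 (34725120 to 34725179) and Dll1 (15504623 to 15504682), and on chromosome 2 for Jag1 (136907433 to 136907492). They lie on chromosome 12 for Jag2 (114146887 to 114146946), 16 for Hes1 (30067820 to 30067879), 3 for Hey1 (8663432 to 8663491) and 4 for Heyl (122926975 to 122927034).

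Among the receptors, Notch1, which acts in many tissues and in the biliary lineage, was measured in p53f/f HCC at levels of 3.09 (mouse 3681), 3.57 (3715), 2.56 (3716), 3.24 (tumor 1 of 3717) and 3.05 (tumor 2 of 3717). In p53LKO HCC its levels were 3.23 (3976), 2.35 (5283), 1.14 (3731), 1.72 (3733) and 2.25 (3975). In 4 tumors the p53LKO level was lower than in any p53f/f HCC, and the tumor of mouse 3976 lay within the p53f/f range. The difference was -0.97 on the log2 scale (SE 0.35, 95% interval -1.74 to -0.19, adjusted p = 0.0553), with an exact 2-sided permutation p of 0.0317, and it did not pass. It passed without the p53f/f HCC of mouse 3716 (-1.10, adjusted p = 0.0439) and without the p53LKO HCC of mouse 3976 (-1.24, adjusted p = 0.0113). Within row 1 it was -1.40 (adjusted p = 0.00883 with these 8 arrays alone), within slide 1 -0.32 and within slide 2 -1.35. Of 24 other settings, 7 called it, and scaling to spike-in probes gave -0.23 (adjusted p = 0.659). In ICC, Notch1 levels were 2.57 (3731), 3.09 (3733), 2.93 (3976), 3.49 (3977) and 2.21 (5283). These overlapped both HCC groups, and the difference from p53LKO HCC was 0.72 (SE 0.37, 95% interval -0.10 to 1.54, adjusted p = 0.136). That difference was -0.22 within slide 1, 1.23 within slide 2 and 0.067 within row 2. Within a mouse, Notch1 was higher in the ICC in 2 of 4 mice and lower in the other 2.

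Notch2, the receptor needed for bile duct formation, had its lowest levels in p53LKO HCC. By the brighter probe the levels in p53f/f HCC were 2.03 (3681), 1.59 (3715), 1.58 (3716) and, for the tumors of 3717, 2.18 and 2.17. The p53LKO HCC had 1.30 (3976), 1.73 (5283), 1.21 (3731), 0.99 (3733) and 1.15 (3975). The ICC had 2.31 (3731), 2.24 (3733), 1.98 (3976), 1.97 (3977) and 1.95 (5283), all above every p53LKO HCC and within or just above the range of p53f/f HCC. Between the HCC groups the difference was -0.63 (SE 0.20, adjusted p = 0.0328), a 1.55-fold change that stayed under the 2-fold limit, and scaling to spike-in probes turned it to 0.11. It was -0.33 within slide 1, -1.05 within slide 2 and -0.79 within row 1. ICC exceeded p53LKO HCC by 0.81 (SE 0.17, adjusted p = 0.00400), or 1.75-fold, and by 0.79 within slide 1, 0.91 within slide 2 and 0.57 within row 2. This difference passed the 2-fold limit with quantile normalization (1.02) and when arrays were scaled on commonly detected probes, by their median (1.01) or 75th percentile (1.18). It missed the adjusted p with slide row as a block (0.57, adjusted p = 0.0694), in row 2 alone (0.57, adjusted p = 0.114) and with mouse as a replicate block (0.81, adjusted p = 0.0586). ICC and p53f/f HCC differed by 0.18 (SE 0.18, 95% interval -0.22 to 0.59, adjusted p = 0.463). In the 4 mice with both tumors, Notch2 was higher in the ICC in 4 of 4, by 0.21 (5283) to 1.24 (3733).

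The upstream probe of Notch2 gave a larger gap between the HCC groups. Its levels ran from -2.93 to -2.64 in p53f/f HCC and from -4.26 to -3.92 in p53LKO HCC, with a difference of -1.28 (SE 0.14, adjusted p = 0.000135), which passed both thresholds. The groups did not overlap, although the probe was well above background on 3 of 5 p53LKO HCC arrays. Those 3 arrays lay in row 1, and all ICC lay in row 2, where fewer probes cleared background. In ICC the probe was well above background on 0 of 5 arrays, so the ICC level by this probe is only a bound. Its mean signal was still not lower there, at -3.38 in ICC and -4.07 in p53LKO HCC.

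Notch3 and Notch4 varied more within groups than between them. Notch3 levels were -1.53, -1.18, 0.27, 0.50 and 0.14 in p53f/f HCC of mice 3681, 3715, 3716 and tumors 1 and 2 of 3717. They were 0.19 (3976), -0.44 (5283), 0.82 (3731), -0.999 (3733) and -0.63 (3975) in p53LKO HCC, and from -1.09 to -0.28 in ICC. All 3 groups overlapped, and the differences were 0.15 between the HCC groups (SE 0.46, adjusted p = 0.830), -0.45 for ICC against p53LKO HCC (SE 0.33, adjusted p = 0.280) and -0.30 for ICC against p53f/f HCC (SE 0.40, adjusted p = 0.571). Notch4 ranged from -1.21 to 0.81 in p53f/f HCC, from -1.38 (5283) to 1.98 (3731) in p53LKO HCC and from -0.28 (3977) to 1.33 (3976) in ICC. Its differences were 0.38 (SE 0.59, adjusted p = 0.648), 0.53 (SE 0.56, adjusted p = 0.468) and, for ICC against p53f/f HCC, 0.91 (SE 0.42, adjusted p = 0.120). That last difference passed without tumor 1 of mouse 3717 (1.21, adjusted p = 0.0354). With intervals this wide, such as -0.92 to 1.68 for Notch4 between the HCC groups, a missed threshold does not show equal levels.

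**Figure D1:**
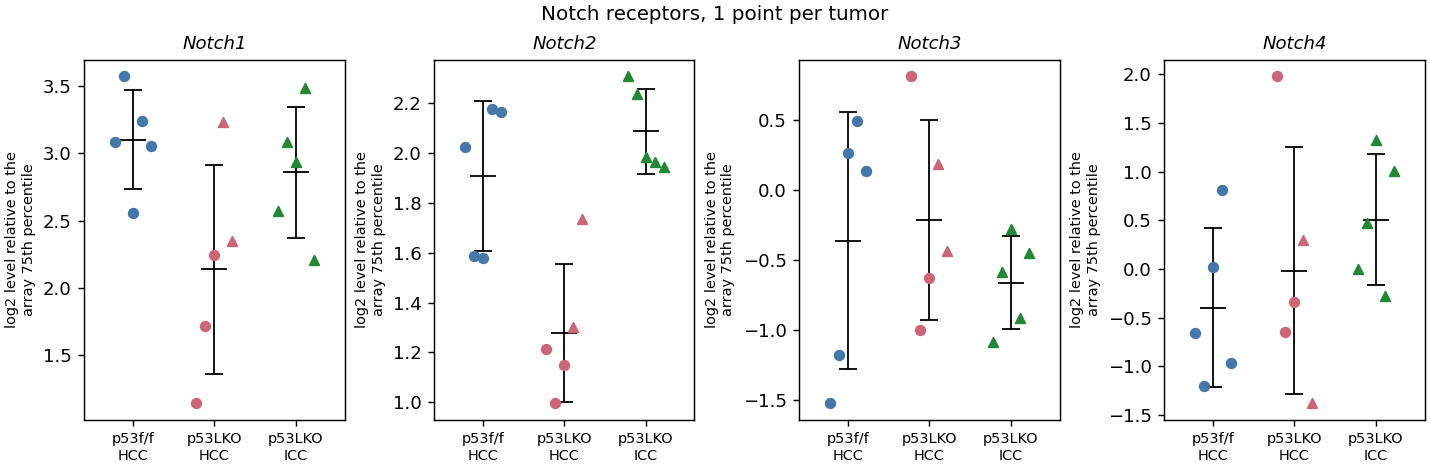
Levels of the 4 Notch receptors in each tumor (y axis, log2 relative to the array 75th percentile) by group (x axis), with circles for arrays in slide row 1, triangles for row 2, filled symbols for signals well above background, and a black cross with bars for mean and SD (n = 5). Notch2 in the 5 ICC lies at 1.95 or higher, above all 5 p53LKO HCC, while Notch3 and Notch4 overlap across the 3 groups.

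Of the ligands, Jag1, the Jagged ligand whose loss causes a paucity of bile ducts, was higher in ICC than in either HCC group. The ICC levels were 1.21 (3731), 1.43 (3733), 0.94 (3976), 0.58 (3977) and 0.50 (5283). The p53LKO HCC had -1.21 (3731), -1.93 (3733), -0.95 (3976), 0.13 (5283) and -2.63 (3975), and the p53f/f HCC had -1.51 (3681), -1.53 (3715), -1.40 (3716), -1.26 (tumor 1 of 3717) and 0.041 (tumor 2 of 3717). Every ICC lay above every HCC, and tumor 2 of mouse 3717 and the p53LKO HCC of mouse 5283 came closest to the ICC. Jag1 rose by 2.25 in ICC against p53LKO HCC (SE 0.44, 95% interval 1.28 to 3.23, adjusted p = 0.00246), which is 4.76-fold, with an exact 2-sided permutation p of 0.00794, the smallest that 5 against 5 arrays allow. Against p53f/f HCC it rose by 2.06 (SE 0.32, adjusted p = 0.00111), or 4.18-fold, with 2.63 within slide 1 and 0.82 within slide 2, where tumor 2 of mouse 3717 is the only p53f/f HCC. Between the HCC groups it differed by -0.19 (SE 0.49, 95% interval -1.26 to 0.88, adjusted p = 0.793), a sign that scaling to spike-in probes or quantile normalization turned. It was 1.01 within slide 1 and, against tumor 2 of mouse 3717 alone, -1.96 within slide 2.

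The Jag1 difference between ICC and p53LKO HCC was 1.62 within slide 1, 2.79 within slide 2 and 1.35 within row 2 (adjusted p = 0.0422 with row 2 alone). Within a mouse, Jag1 was higher in the ICC than in the HCC by 2.42 (3731), 3.36 (3733), 1.90 (3976) and 0.38 (5283), so the direction was the same in 4 of 4 mice and the size was not. The p53LKO HCC of mouse 5283 had the highest Jag1 of its group and its ICC the lowest of the ICC, which left the smallest gap in that mouse.

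Jag2, the other Jagged ligand, was dim. No p53f/f HCC array showed it well above background, at -4.67, -5.87, -5.15, -4.47 and -5.80 for mice 3681, 3715, 3716 and tumors 1 and 2 of 3717. In p53LKO HCC it was well above background in the tumors of mice 3731 (-2.20), 3733 (-4.56) and 3975 (-3.91), and not in those of 3976 (-3.99) and 5283 (-3.49). In ICC it was well above background in 1 tumor (3733, -2.64), and the other 4 had -2.86 (3731), -3.32 (3976), -4.65 (3977) and -3.02 (5283). By its measured signals Jag2 met the call rule, higher in p53LKO HCC than in p53f/f HCC (adjusted p = 0.0188). It entered that test only through p53LKO HCC, where it was brighter, and since p53f/f HCC has only a bound, the change was at least 1.90-fold, which lies under the 2-fold limit. Normexp background correction ended the call (adjusted p = 0.195), as did row 1 alone (adjusted p = 0.0531), and without any 1 of mice 3731, 3733 and 3975 too few arrays were above background for a test. ICC against p53f/f HCC was not tested, and no fold is given, because only 1 ICC array and 0 p53f/f HCC arrays measured Jag2 above background. The bound is the brighter group's mean over all its arrays against the lowest signals called well above background on the dim arrays, or the probe's own signal where that was higher.

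Dll1, a Delta ligand, had its highest group mean in ICC, and its probe was spotted 10 times per array. The p53f/f HCC had -2.15 (3681), -2.36 (3715), -1.63 (3716), -2.62 (tumor 1 of 3717) and -2.41 (tumor 2 of 3717). The ICC had -1.41 (3731), -1.61 (3733), -1.31 (3976), -1.56 (3977) and -1.02 (5283), all above the p53f/f HCC, with the ICC of mouse 3733 next to the p53f/f HCC of mouse 3716. The p53LKO HCC ran from -2.36 (3733) to -0.66 (5283) and overlapped both groups. ICC exceeded p53f/f HCC by 0.85 (SE 0.21, adjusted p = 0.0112), or 1.81-fold, under the 2-fold limit, with 0.78 within slide 1 and 1.04 within slide 2. Without the p53f/f HCC of mouse 3716 it passed (1.00, adjusted p = 0.00382). Against p53LKO HCC the ICC difference was 0.38 (SE 0.30, 95% interval -0.28 to 1.03, adjusted p = 0.328), and between the HCC groups it was 0.48 (SE 0.32, adjusted p = 0.273).

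The 3 target genes did not move as 1 group. Hes1, a repressor switched on by Notch in many tissues, was lowest in ICC, where its levels were 0.14 (3731), 0.12 (3733), 0.10 (3976), 0.31 (3977) and 0.10 (5283). In p53LKO HCC they were 0.70 (3731), 0.42 (3733), 0.62 (3976), 0.64 (5283) and 0.98 (3975), and in p53f/f HCC 0.36 (3681), 0.59 (3715), 0.99 (3716), 1.26 (tumor 1 of 3717) and 1.87 (tumor 2 of 3717). No ICC reached any HCC, and the HCC groups overlapped. The difference of ICC was -0.52 from p53LKO HCC (SE 0.15, adjusted p = 0.0163), or 1.43-fold, and -0.86 from p53f/f HCC (SE 0.26, adjusted p = 0.0273), or 1.81-fold, both under the 2-fold limit. The former was -0.54 within slide 2 and -0.47 within row 2, and the latter -0.66 within slide 1 and -1.72 within slide 2. The difference from p53f/f HCC passed the limit without the p53f/f HCC of mouse 3681 (-1.02, adjusted p = 0.0132) and with slide as a block (-1.19, adjusted p = 0.0325), and missed the adjusted p with scaling to spike-in probes (-0.11, adjusted p = 0.849). That from p53LKO HCC missed it with scaling to the 75th percentile of commonly detected probes (-0.15, adjusted p = 0.485) and with slide row as a block (-0.47, adjusted p = 0.107). Within a mouse, Hes1 was lower in the ICC in 4 of 4 mice, with differences of -0.56 (3731), -0.30 (3733), -0.52 (3976) and -0.54 (5283).

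Heyl, a Hey-family repressor known from vascular smooth muscle, was highest in ICC. The ICC levels were -0.34 (3731), 0.64 (3733), 1.26 (3976), -0.10 (3977) and 0.45 (5283). In p53LKO HCC they were -0.045 (3731), -1.42 (3733), -0.34 (3976), -1.35 (5283) and -1.98 (3975), and in p53f/f HCC -2.83 (3681), -1.24 (3715), -1.37 (3716), -1.74 (tumor 1 of 3717) and -1.40 (tumor 2 of 3717). Every ICC lay above every p53f/f HCC, and 3 of 5 lay above every p53LKO HCC. Heyl rose by 2.10 in ICC against p53f/f HCC (SE 0.37, 95% interval 1.28 to 2.91, adjusted p = 0.00214), or 4.28-fold, with 1.45 within slide 1 and 1.97 within slide 2. It rose by 1.41 against p53LKO HCC (SE 0.41, 95% interval 0.51 to 2.31, adjusted p = 0.0173), or 2.66-fold, with an exact 2-sided permutation p of 0.0397. It was 0.50 within slide 1 and 1.71 within slide 2. The call against p53LKO HCC was lost with mouse as a block (1.29, adjusted p = 0.0679), with slide row as a block (1.23, adjusted p = 0.127) and with row 2 alone (1.23, adjusted p = 0.10). Within a mouse, the ICC exceeded the HCC by 2.07 (3733), 1.60 (3976) and 1.80 (5283), while the difference in mouse 3731 was -0.30. Between the HCC groups Heyl differed by 0.69 (SE 0.41, adjusted p = 0.224).

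Hey1, the related repressor known from endothelial cells, ranged from -2.09 (3681) to 0.30 (tumor 1 of 3717) in p53f/f HCC, from -1.53 (3733) to 0.22 (3731) in p53LKO HCC and from -1.41 (3731) to 0.31 (5283) in ICC. The 3 groups overlapped almost fully. Its differences were 0.44 between the HCC groups (SE 0.47, adjusted p = 0.496), 0.33 for ICC against p53LKO HCC (SE 0.41, adjusted p = 0.533) and 0.77 for ICC against p53f/f HCC (SE 0.48, 95% interval -0.29 to 1.83, adjusted p = 0.235).

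**Figure D2:**
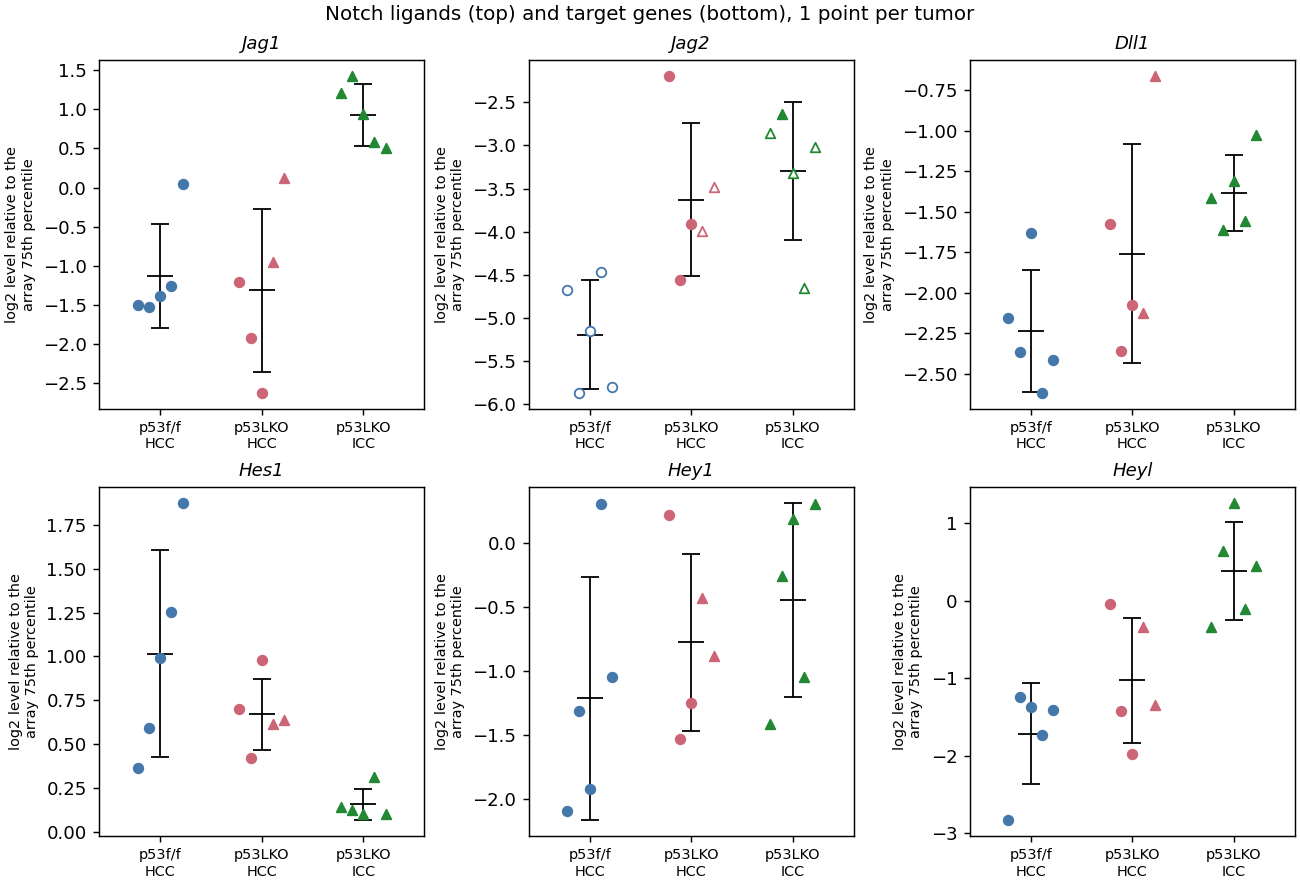
Levels of the 3 ligands (top) and 3 target genes (bottom) in each tumor (y axis, log2 relative to the array 75th percentile) by group (x axis), with circles for slide row 1, triangles for row 2, open symbols for signals not well above background, and mean and SD in black (n = 5). Jag1 lies at 0.50 or higher in the 5 ICC, above all 10 HCC, Hes1 in the ICC lies below all 10 HCC, and Jag2 has open symbols in all 5 p53f/f HCC.

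In counts, p53LKO HCC against p53f/f HCC had 1 of 10 members called, where 16.0% of the 17824 genes tested were called. The 1 was Jag2, for which p53f/f HCC has only a bound, and with only probes above background on every array the count was 0. The median difference of the members was 0.26, and that of all genes 0.06. At an adjusted p under 0.05 alone, 2 of 10 members passed (Notch2 and Jag2) against 29.5% of all genes. No member had groups without overlap, against 19.5% of all genes.

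ICC against p53LKO HCC had 2 of 10 members called (Jag1 and Heyl, both higher), where 28.4% of 16941 genes were called and 13.2% were called higher. The members' median difference was 0.45, and that of all genes was -0.17. By adjusted p alone 4 of 10 passed (Notch2, Jag1, Hes1 and Heyl), against 47.6% of all genes. For 3 of 10 (Notch2, Jag1 and Hes1) the groups did not overlap, against 30.8%. ICC against p53f/f HCC had 2 of the 9 members tested called, again Jag1 and Heyl and both higher, where 22.8% of 17755 genes were called and 10.8% were called higher. The median over those 9 was 0.77, and that of all genes -0.18. By adjusted p alone 4 of 9 passed (Jag1, Dll1, Hes1 and Heyl), against 37.0% of all genes. The groups of the same 4 genes did not overlap, against 27.4%. No member was called lower in either comparison, where 15.2% of all genes were called lower against p53LKO HCC and 2122 of 17755 against p53f/f HCC, and counts this small say nothing about the members as a group. The 2 comparisons with ICC share its 5 arrays, so they are not separate evidence, and ICC and p53f/f HCC also lay in different slide rows, so that row and group cannot be told apart there.

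**Figure D3:**
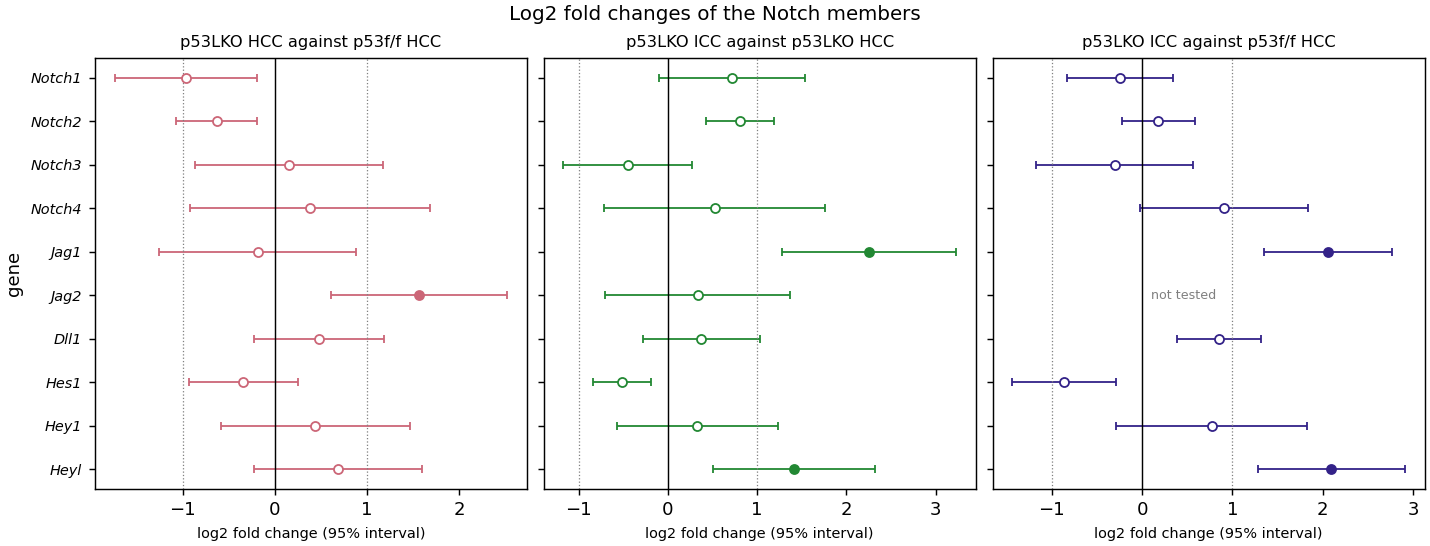
Log2 fold change (x axis) of each member (y axis) in the 3 comparisons, with 95% intervals from limma on 5 arrays per group, filled points for genes past both thresholds, and dotted lines at a 2-fold change. Jag1 and Heyl are filled in both comparisons with ICC, at 2.25 and 1.41 against p53LKO HCC, and only Jag2 is filled between the HCC groups, where its point uses signals not well above background in p53f/f HCC.

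By the order of the group means, Jag1 ran from p53LKO HCC over p53f/f HCC to ICC, with no difference shown between the first and the second. Heyl, Dll1, Hey1 and Notch4 ran from p53f/f HCC over p53LKO HCC to ICC, and of their neighbouring pairs only p53LKO HCC and ICC for Heyl passed. Notch3 ran from ICC over p53f/f HCC to p53LKO HCC with no pair past the test. Hes1 ran from ICC over p53LKO HCC to p53f/f HCC, with a neighbouring pair past the adjusted p only for p53LKO HCC and ICC. Notch1 and Notch2 were lowest in p53LKO HCC, and Notch2 there differed by adjusted p from both other groups.

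Single tumors stood out across members. The p53LKO HCC of mouse 3731 had the highest level of its group for 4 of the 9 members other than Jag2 (Notch3, Notch4, Hey1 and Heyl) and the lowest for Notch1, and that of mouse 3733 had the lowest for 5 of 9. In p53f/f HCC, tumor 1 of mouse 3717 was highest for 4 of 9 (Notch2, Notch3, Notch4 and Hey1). The HCC of mouse 3731 and tumor 1 of mouse 3717 also had the highest mean level of 8 endothelial markers in their groups, 1.11 and 1.14, and the former had the highest mean of 8 stellate and mural markers among p53LKO HCC, 2.38. The part of these cells in the Notch levels was not tested. The pair of tumors from mouse 3717 differed from each other in Notch4 (0.81 and -0.97), Hey1 (0.30 and -1.04) and Jag1 (-1.26 and 0.041).

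The labelled tumor types were set against marker genes. The mean level of 9 biliary markers ran from -2.70 to -0.41 in p53f/f HCC, from -2.67 to -1.46 in p53LKO HCC and from 0.073 to 0.38 in ICC, and Krt19, Krt7, Epcam and Spp1 (4 of 8 tested) were called higher in ICC than in p53LKO HCC. Epcam was well above background on 0 of 5 p53LKO HCC arrays and Krt7 on 1 of 5. Both thus entered this test only through ICC. Muc1 was well above background on 2 of 5 p53LKO HCC and 0 of 5 ICC arrays. Its mean signal was still not lower in ICC, at -3.93 against -4.41 in p53LKO HCC. Tumor 2 of mouse 3717, the p53f/f HCC with the highest Jag1, had the highest biliary mean of the 10 HCC, -0.41. Hepatocyte markers were called lower in ICC for 6 of 8, with means from 5.83 to 6.27 in p53LKO HCC and from 2.86 to 5.61 in ICC, and all 8 were well above background in every ICC. The others, Cps1 at -1.66 and Cyp2e1 at 1.94 against p53LKO HCC, missed the adjusted p. Biliary markers thus moved with Jag1, and their part in its difference was not tested.

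Stellate and mural markers moved with Heyl. Their mean ran from -0.76 to 0.87 in p53f/f HCC, from 0.79 to 2.38 in p53LKO HCC and from 1.88 to 2.82 in ICC. Against p53LKO HCC, ICC had Col1a1, Col3a1, Pdgfrb and Rgs5 called higher and Cspg4 lower, and the same tumors led both measures, mouse 3731 among p53LKO HCC (2.38, Heyl -0.045) and mouse 3976 among ICC (2.82, Heyl 1.26). Their part in the Heyl difference was not tested. Endothelial markers ran from 0.37 to 1.14, from -0.39 to 1.11 and from -0.63 to 0.64 in the 3 groups. Of these 8, Vwf alone was called between ICC and p53LKO HCC. Tek was well above background on 3 of 5 p53LKO HCC and 0 of 5 ICC arrays, with mean signals of -3.60 and -3.14. All ICC lay in slide row 2, where fewer probes cleared background. Macrophage and leukocyte markers overlapped across groups, from 1.01 to 1.86, from 1.09 to 2.25 and from 1.40 to 2.29. Pancreatic acinar markers ran from -2.23 to -1.24, from -2.22 to -1.66 and from -1.62 to -0.89. Their members moved apart between ICC and p53LKO HCC, with Gp2 higher by 11.87 (SE 0.45, adjusted p = 3.36e-07) and Cela1 and Ctrb1 lower, at -4.93 and -1.28.

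**Figure D4:**
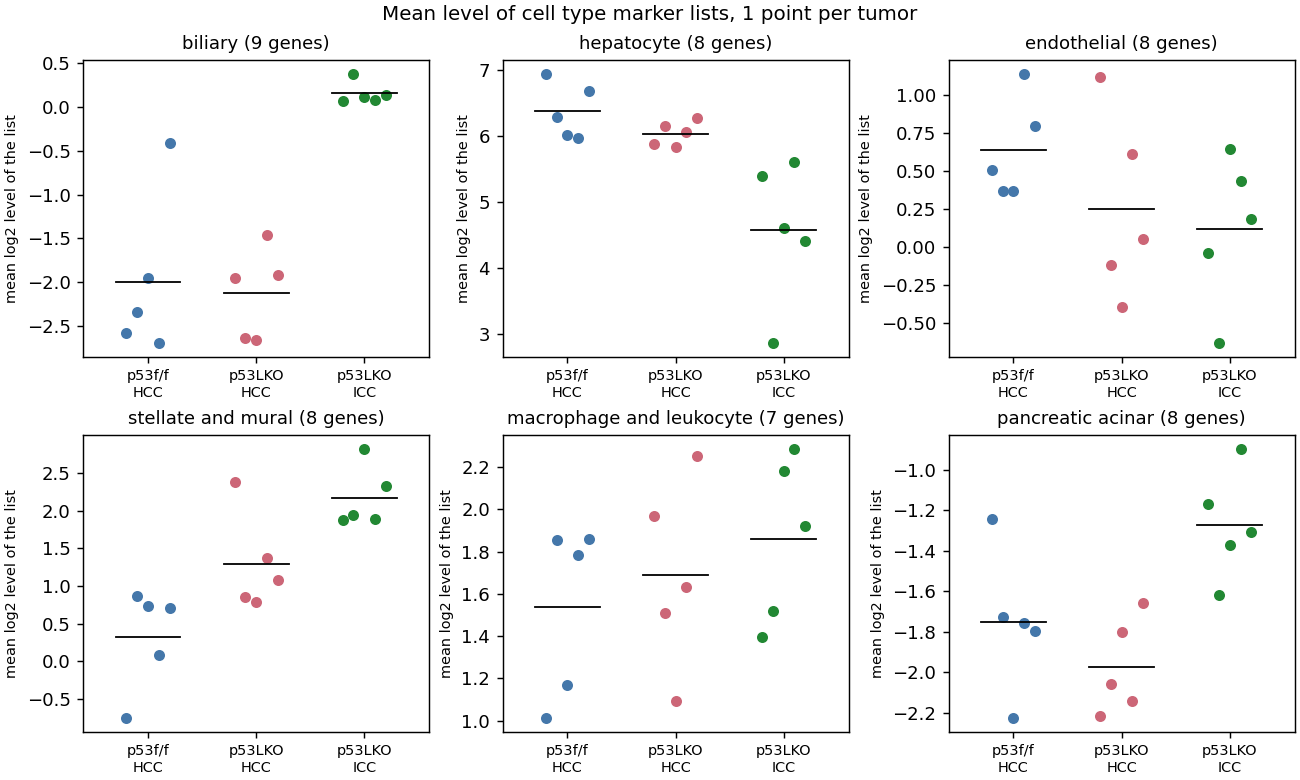
Mean log2 level of each cell type marker list (y axis) in each tumor, by group (x axis), with a black line at the group mean. The biliary mean lies at 0.073 or higher in the 5 ICC and at -0.41 or lower in the 10 HCC, and the stellate and mural mean lies at 1.88 or higher in ICC.

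The rest of the pathway was described with 50 further genes, of which 49 are on the array under these symbols (Aph1c is not). In p53LKO HCC against p53f/f HCC, 4 of 47 tested were called higher (Neurl1a, Numbl, Ctbp1 and Dlk1) and 3 lower (Hes5, Dtx3 and Maml3), against 5.18% and 10.8% of all genes. Dlk1, a non-canonical ligand of fetal liver, differed most, from -1.99 ± 1.76 (SD, n = 5) in p53f/f HCC to 2.17 ± 2.12 in p53LKO HCC, a change of 4.16 (SE 1.06, adjusted p = 0.0123) with overlap. Numbl, related to the Notch inhibitor Numb, rose by 1.68 (SE 0.28, adjusted p = 0.00117), and Neurl1a, a ubiquitin ligase that acts on ligands, rose by 1.47 (SE 0.24, adjusted p = 0.00103). Ctbp1, a corepressor, rose by 1.01 (SE 0.19, adjusted p = 0.00284). Hes5, a Hes-family target gene, fell by 1.62 by its measured signals (SE 0.35, adjusted p = 0.00535). It was well above background in 2 of 5 p53LKO HCC and entered the test only through p53f/f HCC, where it was brighter. The size of its fall is thus not exact.

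In ICC against p53LKO HCC, 3 of 46 tested were called higher (Poglut1, Dtx3 and Maml3) and 5 lower (Dll4, Dlk1, Psen2, Aph1a and Hes6), against 13.2% and 15.2% of all genes. Dll4, the Delta ligand of endothelial cells, fell by 2.24 (SE 0.24, adjusted p = 0.000102) without overlap, from -0.17 ± 0.34 to -2.41 ± 0.43. Of the 8 endothelial markers above, Vwf was called higher in this comparison (1.46, adjusted p = 0.0149) and none was called lower. Kdr was at -0.94 (adjusted p = 0.00690), under the 2-fold limit but without overlap, and Lyve1 at -1.48 and Stab2 at -0.86 missed the adjusted p. The part of these cells in the Dll4 difference was not tested. Psen2 and Aph1a, subunits of the γ-secretase that frees the receptor's intracellular domain, fell by 1.47 (SE 0.21, adjusted p = 0.000450) and 1.11 (SE 0.18, adjusted p = 0.000806). Poglut1, which adds glucose to the receptors' EGF repeats, rose by 1.94 (SE 0.40, adjusted p = 0.00301), and Dtx3, of the Deltex family, rose by 2.18 (SE 0.30, adjusted p = 0.000349). Maml3, a Mastermind coactivator, rose by 1.54 (SE 0.26, adjusted p = 0.00117). Like Notch2, both Dtx3 and Maml3 had their lowest group mean in p53LKO HCC.

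In ICC against p53f/f HCC, 7 of 47 were called higher (Poglut1, Lfng, Adam10, Neurl1a, Dtx3, Numbl and Rbpj) and 2 lower (Dll4 and Psen2), where 22.8% of all genes were called. Rbpj, the DNA-binding protein of the pathway, had means of 0.29 ± 0.26 in p53f/f HCC, 0.74 ± 0.15 in p53LKO HCC and 1.56 ± 0.37 in ICC, and rose by 1.27 (SE 0.21, adjusted p = 0.00168) between the outer groups. Adam10, which makes the first cut in a ligand-bound receptor, rose by 1.34 (SE 0.20, adjusted p = 0.000858). Lfng, a glycosyltransferase of the receptors, rose by 1.37 (SE 0.41, adjusted p = 0.0260) and was well above background in 3 of 5 ICC.

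**Figure D5:**
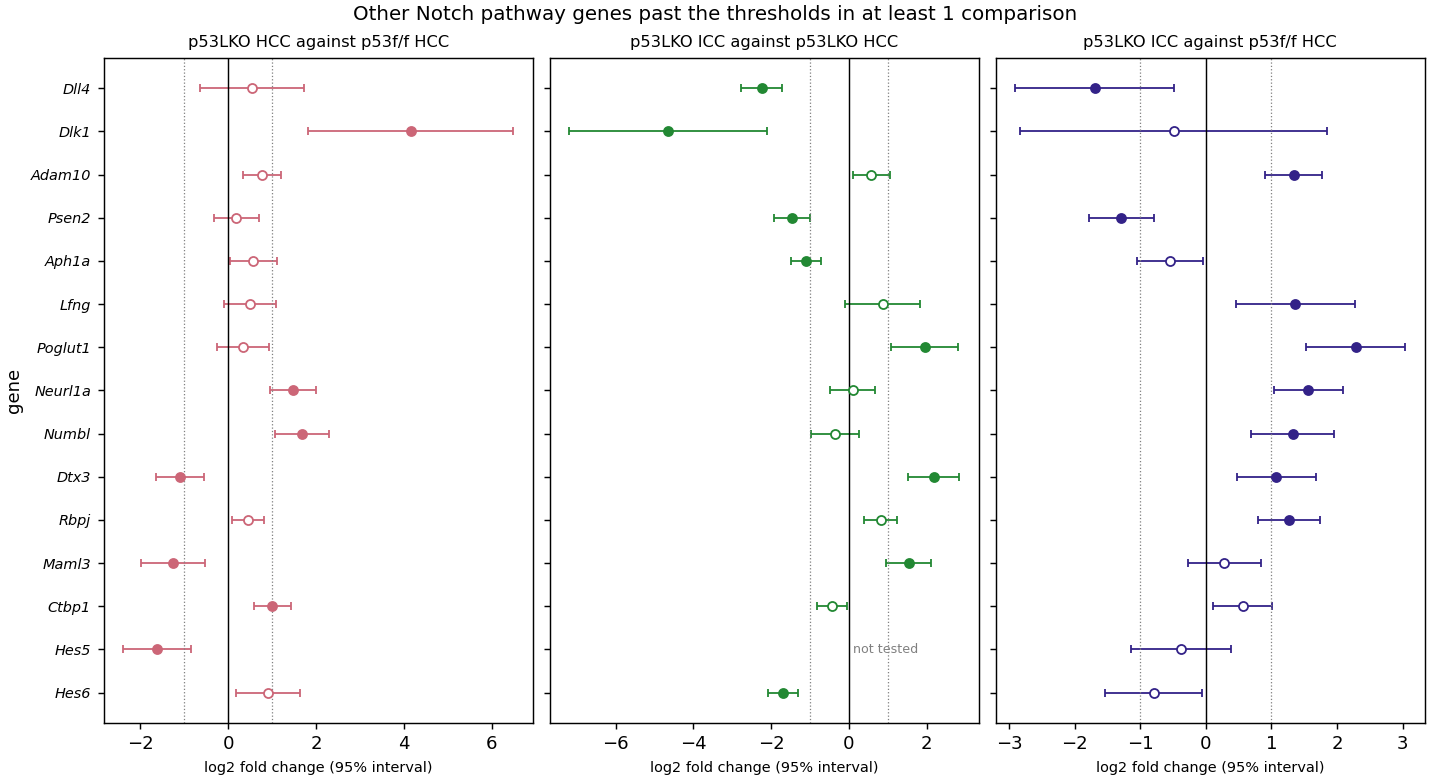
Log2 fold change (x axis) with 95% intervals of the 15 further pathway genes (y axis) past both thresholds in at least 1 of the 3 comparisons, with filled points where the gene passed and dotted lines at a 2-fold change. Dll4 lies at -2.24 in ICC against p53LKO HCC, and Dlk1 has the widest intervals, around 4.16 and -4.65 in the comparisons with p53LKO HCC.

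The genes whose levels followed a member most closely were ranked by the root mean square difference of their centred levels over the 15 arrays, among 13648 candidates. For Heyl these were Ednra, the endothelin receptor of smooth muscle (0.256), Pde1a (0.288) and Pfkfb3 (0.366), beside an SD of Heyl itself of 1.11. For Jag1 the closest was Parp8 (0.475, SD 1.26), for Notch4 Trp53i11 (0.294, SD 0.964) and for Dll1 Parva (0.164, SD 0.563). For Notch1 it was 4932431P20Rik (0.119, SD 0.679), for Notch2 Zfp729b (0.158, SD 0.431) and for Notch3 Sept4 (0.427, SD 0.679). Hes1 was nearest to Tmem18 (0.296, SD 0.498) and Hey1 to Ecm1 (0.422, SD 0.815). The SD of the member is the difference that a flat gene would give, so the match was close for Notch1, Heyl, Dll1 and Notch4 and loose for Notch3, Hes1 and Hey1. Jag2 was left out, with too few arrays above background.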

How the data were processed

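RNA of 15 mouse liver tumors had been hybridised to 1-colour Agilent arrays, and the authors extracted the scans with Agilent Feature Extraction 10.7.3.1. The deposited scanner files give the processed signal of each spot, an intensity after background subtraction. The deposited table of log2 values was found to hold the same values centred per probe on a median over 10 arrays, on different arrays for HCC and ICC, and served only as an alternative.

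Unflagged spots of a probe were averaged on the log2 scale and shifted by the 75th percentile of the array. Probes were tested if, in 1 or both groups of a comparison, 3 or more arrays showed them well above background, on 5 against 5 arrays, with limma 3.58.1 (R 4.3.3) and Benjamini-Hochberg adjustment over all probes tested (36015, 32608 and 35633). A gene is represented by its brightest probe. Exact permutation tests ran over 252 splits. Every member is named, with further pathway genes past the thresholds and the closest-matching genes. The members and lists were chosen with earlier results of these data known. The labels name mice and tumors, and p-values measure the spread between tumors, 2 of which share mouse 3717. The main tests and permutation tests of ICC against p53LKO HCC were not paired by mouse. HCC and ICC of 1 mouse were paired only for the within-mouse differences and with mouse as a replicate block. Deviations from group means correlated at -0.16 to 0.032 over 4 such pairs and at -0.21 to 0.22 over 21 pairs of other mice. On simulated data with 200 probes changed by 2 on the log2 scale, 78%, 78.5% and 77% were recovered. Arrays have no read depth, so their number and the signal over background set the precision. Figures used Python 3.11.15 and matplotlib 3.10.9.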

Additional observations from a re-analysis of the deposited data

Results flagged for a closer look

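In 2 of 30 groups of 5 tumors examined for the 10 members, 1 tumor lay apart from the others by Dixon's criterion (0.71 for 5 samples). Chance gives this in about 1 group in 20. Jag1 in tumor 2 of mouse 3717 was 0.0412 on the log2 scale, against -1.53 to -1.26 in the other 4 p53f/f HCC. Hes1 in the ICC of mouse 3977 was 0.3102, against 0.10 to 0.14 in the other 4 ICC.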

How the results depend on the processing

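Jag1 kept its call in ICC under all 23 alternatives against p53LKO HCC (1.35 to 2.62) and all 21 against p53f/f HCC (1.67 to 2.81), and Heyl under 20 of 23 and 21 of 21. The count called between the HCC groups, 1, became 0 with normexp or with only probes above background on every array, 2 with quantile normalization, slide row as a block, no fold limit, the second brightest probe, or scaling to the median or 75th percentile of commonly detected probes, and 3 with spike-in scaling (Jag2, Dll1 and Heyl). The genes added were Notch2 with no fold limit or the second brightest probe and Notch1 in the other settings that gave 2. Leaving out 1 array each gave 0 to 2. For ICC against p53LKO HCC, 2 became 4 with scaling to the 75th percentile of common probes (Notch1 and Notch2 added) or no fold limit, 3 with quantile normalization or scaling to the median of common probes (Notch2 added), and 1 with slide row as a block, with row 2 alone (chosen after seeing the data, as was row 1 alone above) or with mouse as a replicate block. The block changed no other member's call. For ICC against p53f/f HCC, 2 became 4 with spike-in scaling (Notch4 and Dll1 added) or no fold limit, and 3 with no filter on dim probes (Jag2 added, which only 1 of these 10 arrays measured above background) or slide as a block (Hes1 added). Leaving out arrays gave 2 in the former and 2 to 3 in the latter comparison. Signs turned only for members not called. Between the HCC groups, Jag1 became 0.021 with quantile normalization, Notch3 -0.097 and -0.037 with scaling to the 75th percentile and median of common probes, and with spike-in scaling Notch2 0.11, Jag1 0.55 and Hes1 0.39. Leaving out 1 array gave -0.14 to 0.36 for Notch3, -0.12 to 0.72 for Notch4 and -0.55 to 0.14 for Jag1. For ICC against p53f/f HCC, spike-in scaling gave Notch1 0.50 and Notch3 0.44, and the second Notch2 probe gave -0.60, with ICC not above background on any array. Spike-in scaling moved the median of all probes from -0.12 to 0.62 between the HCC groups (higher and lower calls from 1307 and 5766 to 9799 and 2310) and from -0.31 to 0.43 for ICC against p53f/f HCC (from 2648 and 4279 to 7324 and 929). Scaling to the 75th percentile of common probes moved it from -0.16 to 0.21 for ICC against p53LKO HCC (from 4218 and 4384 to 6233 and 2246). The causes of these shifts were not tested. Slide row could not be fitted for ICC against p53f/f HCC, and the authors' table served the HCC comparison alone.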
